A study of Mus musculus with 6 samples.

Results

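The insulin-like growth factor (IGF) family described here holds 10 genes of the rat ovary: the ligands Igf1 and Igf2, the receptors Igf1r and Igf2r, and the binding proteins Igfbp1, Igfbp2, Igfbp3, Igfbp4, Igfbp5 and Igfbp6. Members were chosen by gene name from the 22487 genes of the deposited table, with summed count as the tie-breaker for a repeated name. No member's name was repeated, so no measured value decided a row, though the family was picked with earlier results of these data known. Of the 10, 9 averaged 0.5 FPKM or more over the libraries and were tested, and Igfbp1 fell under that filter. FPKM is the count divided by gene length and library total, and is used below to compare one gene with another. CPM is the count as a part of the scaled library total, and is used to compare one library with another.

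RNA sequencing of poly(A) RNA measured whole ovarian tissue of adult female rats that the labels give as wild type (WT). The control group of 3 libraries had the treatment None, and the other group of 3 libraries had been exposed to PM2.5, fine airborne particles, from a cowshed. All 6 titles carry 30 days, without saying whether these are days of exposure. Strain, age, dose and route of exposure, and whether a library is 1 animal, are unstated in the labels, so p-values measure the spread between these libraries, which may in part be technical. The organism field names the mouse, whereas the titles name the rat and the gene identifiers are those of the rat.

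IGF1 and IGF2 are small hormones resembling insulin that act through the tyrosine kinase receptor encoded by Igf1r, while the receptor encoded by Igf2r carries IGF2 to lysosomes for breakdown. The binding proteins hold the hormones in tissue fluid and blood and can keep them from the receptor or deliver them to it. In the rodent ovary Igf1 is known as a granulosa cell product that amplifies the action of follicle-stimulating hormone, and binding proteins differ in the follicle, interstitial or luteal compartment in which they are made.

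Total counts were between 47662338 and 60749578 per library. The tissue carried its defining markers: the summed FPKM of 7 granulosa cell genes was between 552 and 3412 per library, that of 5 luteal cell genes between 4146 and 13819, and that of 5 oocyte genes between 6.30 and 65.3. Control 3 stood apart from the other controls on both of the first lists, with the lowest granulosa sum (552, against 2529 and 2138 in controls 1 and 2) and the highest luteal sum (13819, against 7133 and 6986). Fold changes without control 3 are therefore given beside several of those that it moves most. Group means, ranks, shares and ratios include control 3.

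Per length, Igfbp2, Igfbp6, Igfbp4 and Igfbp5 stood above both ligands and both receptors by mean level in each group, Igfbp3 did so in the controls, and Igfbp1 was the lowest of the 10. In the controls the order of mean FPKM was Igfbp3 at 74.8, Igfbp2 at 69.6, Igfbp6 at 46.7, Igfbp4 at 40.8, Igfbp5 at 20.2, Igf2r at 8.52, Igf1r at 6.38, Igf1 at 6.19, Igf2 at 3.18 and Igfbp1 at 0.345. Of these neighbours, Igf2 and Igfbp1 alone had ranges over the 3 controls that did not overlap. Library by library, Igfbp2 was above Igfbp6, Igfbp4 above Igfbp5 and Igf1 above Igf2 in every control. In the PM2.5 libraries the order was Igfbp2 at 118, Igfbp6 at 84.8, Igfbp4 at 34.5, Igfbp5 at 23.7, Igf1 at 11.1, Igfbp3 at 10.6, Igf2r at 9.72, Igf2 at 5.75, Igf1r at 3.70 and Igfbp1 at 0.0701 FPKM. There the ranges of Igfbp6, Igfbp4 and Igfbp5 each lay above that of the next gene, as did that of Igf1r above Igfbp1. The ranges of the other neighbours overlapped. Igfbp3 was the first of the 10 by mean level in the controls and the sixth (rank 6) in the PM2.5 libraries. Its first place rested on control 3, where it had 106 FPKM against 28.4 for Igfbp2. In controls 1 and 2 Igfbp3 lay below Igfbp2, at 37.3 and 81.1 against 68.5 and 112 FPKM.

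**Figure D1:**
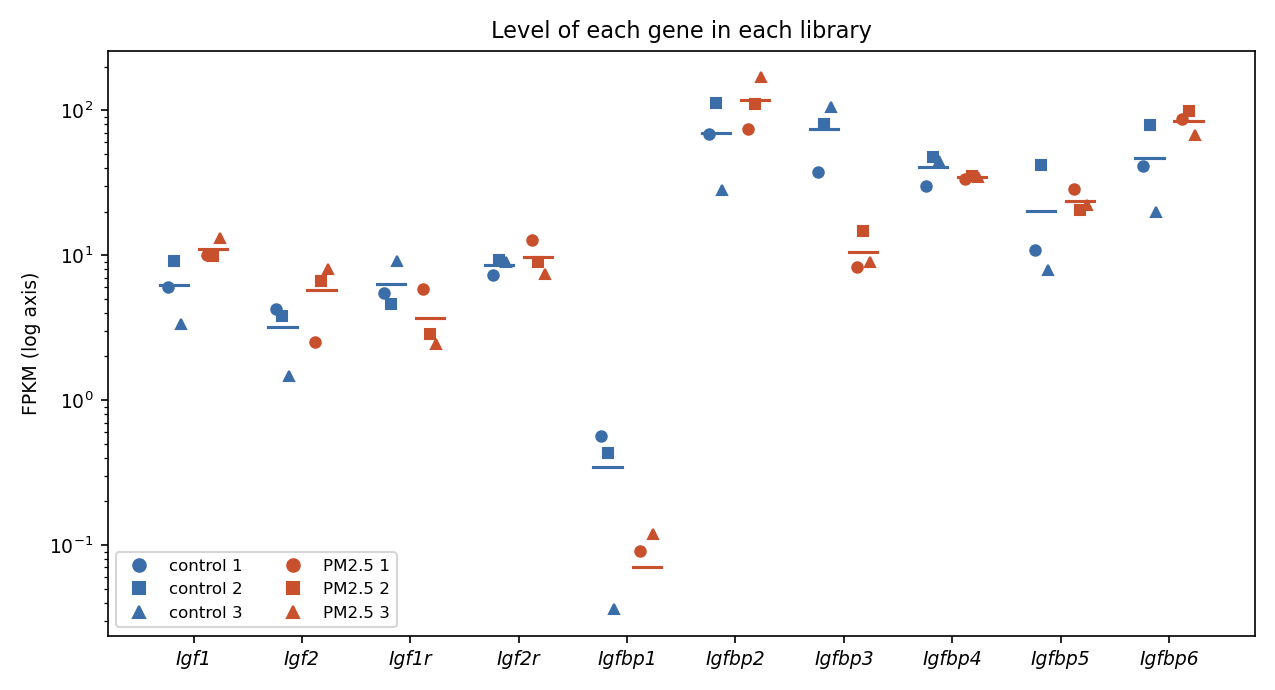
FPKM of the 10 genes in each library on a log axis, controls in blue and PM2.5 libraries in orange, with a bar at the mean of each group of 3. The 3 PM2.5 values of Igfbp3 lie between 8.31 and 14.6 FPKM, below all control values, and PM2.5 library 2 has no count of Igfbp1 and is not drawn there.

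Igfbp3, which encodes the main carrier of IGFs in blood and is also made in many tissues, fell in the PM2.5 libraries. It had 101, 211 and 298 CPM in the controls (1 to 3) and 22.4, 39.5 and 24.0 CPM in PM2.5 libraries 1 to 3. The groups did not overlap, and the lowest control was 2.55 times the highest PM2.5 library. The mean was 203 ± 99.0 CPM in the controls and 28.6 ± 9.44 CPM in PM2.5 (SD, n = 3 in each group), a 7.11-fold lower level after exposure. The log2 fold change was -2.83 ± 0.44 (SE), and its p from edgeR's quasi-likelihood fit, adjusted by Benjamini-Hochberg over all 15303 genes tested, was 0.0463. The 95% interval of the difference ran from 3.47-fold to 14.6-fold lower. The gene (ENSRNOG00000061910) lies on the minus strand of chromosome 14 from 82056347 to 82064083 (coordinates as deposited, genome build not stated). In bulk tissue, fewer cells of a type and less RNA per cell cannot be told apart.

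Igfbp3 was the 1 member of 9 tested that passed over all genes, where 0.928% of all tested genes passed in either direction and 0.738% passed as lower. It ranked 112 by p among the genes tested, near the end of the 142 that passed. Leaving out any 1 of the 6 libraries ended the call: the adjusted p was 0.0899, 0.0748 and 0.106 without controls 1 to 3 and 0.110, 0.230 and 0.101 without PM2.5 libraries 1 to 3, with log2 fold changes from -3.15 to -2.44. Without control 3, which had the highest level, the log2 fold change was -2.44. The call was also lost with no filter on low genes (adjusted p = 0.0565), while DESeq2 gave an adjusted p of 6.32e-09. Of the marker lists, the T and NK cell list alone separated the groups in the direction of Igfbp3. Its summed FPKM was 7.73 to 11.1 in the controls and 3.36 to 5.26 in PM2.5. The erythroid list (190 to 220 and 752 to 1184) and the adipocyte list (4.68 to 7.95 and 8.82 to 32.5) were apart the other way, higher in PM2.5. Each of these lists had 5 of 5 genes in the table and none at 0 in all libraries. Of the T and NK cell genes Gzmb alone was apart between the groups, at 2.18 to 7.52 and 0.152 to 0.438 FPKM, and the sum of the other 4 overlapped (3.61 to 5.55 and 3.21 to 4.83). The adipocyte sum without Adipoq also overlapped, at 3.52 to 6.83 and 6.81 to 12.2, while the erythroid sum stayed apart without any 1 of its genes. The luteal sums overlapped (6986 to 13819 in the controls and 4146 to 7387 in PM2.5), as did the endothelial sums (74.9 to 126 and 62.7 to 106). Of the luteal genes Akr1c3 alone was apart between the groups, lower in PM2.5, at 3233 to 6721 and 218 to 1473 FPKM. Of the endothelial genes Cdh5 was apart and lower in PM2.5, at 18 to 33.4 and 9.62 to 17.6 FPKM. Tek, of the same list, was apart and higher, at 6.29 to 8.33 and 9.41 to 10.6 FPKM. The theca and interstitial sums overlapped (53 to 201 and 81.5 to 99.4). Of those genes Insl3 was apart and lower in PM2.5, at 5.86 to 7.4 and 4.3 to 4.77 FPKM. Hsd17b3, also of that list, was low and was apart and higher, at 0.344 to 0.568 and 0.615 to 0.763 FPKM. The part of these cells in the Igfbp3 result was not tested.

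**Figure D2:**
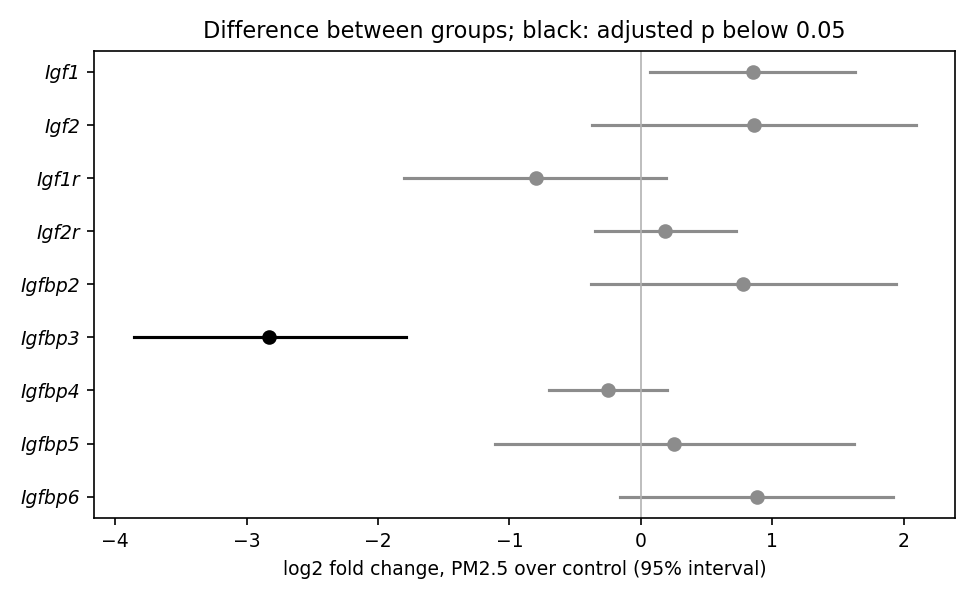
Log2 fold change of the 9 tested members, PM2.5 over control, with 95% intervals from edgeR. The interval of Igfbp3 runs from -3.86 to -1.79, and Igf1 is the other member whose interval leaves out 0, from 0.07 to 1.63. These intervals are not adjusted for the number of genes. An unadjusted edgeR p below 0.05 was met by 2 of the 9 members and by 20.9% of all tested genes, so that count is near the background.

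Igfbp1, whose protein is chiefly a product of liver and of uterine decidua, was close to the limit of detection. It had 46, 36 and 4 counts in the controls (1 to 3) and 8, 0 and 10 counts in PM2.5 libraries 1 to 3. Controls 1 and 2 were above all PM2.5 libraries, while control 3 was below PM2.5 libraries 1 and 3, so the groups overlapped. The gene was below the filter on low values, and in the fit without a filter its edgeR adjusted p was 0.459. The 0 of PM2.5 library 2 allows up to 0.0494 CPM, taken as 3 counts and covering counting error only. Of the 5 hepatocyte markers each had counts in some library, with a summed FPKM of 12.3 to 30.1 in the controls and 16.1 to 26.3 in PM2.5. Most of the control sums was Apoa1, at 9.55 to 29 FPKM, while Alb had 0 counts in controls 1 and 3. Tat had 8 counts in PM2.5 library 3 and 0 elsewhere. Igfbp1 and Igfbp3 are neighbours on chromosome 14, with 3864 bases and no other gene of the table between their ends, on opposite strands. They did not share their order over the controls: control 3 had the highest Igfbp3 and the lowest Igfbp1.

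The 4 other binding proteins did not pass the test, and their spread between controls was wide except for Igfbp4. Igfbp2, a binding protein known from theca and interstitial tissue of the rat ovary, had 101, 158 and 43.4 CPM in the controls (1 to 3) and 110, 163 and 247 CPM in PM2.5 libraries 1 to 3. Control 3 was the lowest and PM2.5 library 3 the highest, with the others between them in overlap. The log2 fold change was 0.78 ± 0.49 (edgeR adjusted p = 0.397), with a 95% interval from -0.38 to 1.94. With 1 library left out it ran from 0.42 (control 3) to 1.27 (control 2).

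Igfbp6, which binds IGF2 with preference over IGF1, had 44.8, 81.9 and 22.2 CPM in the controls (1 to 3) and 93.7, 107 and 72.8 CPM in PM2.5 libraries 1 to 3. Control 2 lay above PM2.5 library 3, and the other controls lay below every PM2.5 library. Its log2 fold change was 0.88 ± 0.44 (edgeR adjusted p = 0.301), with a 95% interval from -0.16 to 1.92, and was 0.53 without control 3 and 1.45 without control 2.

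Igfbp5, known in the rat ovary from granulosa cells of follicles in atresia, had 70.3, 262 and 53.9 CPM in the controls (1 to 3) and 186, 133 and 143 CPM in PM2.5 libraries 1 to 3. Control 2 was the highest of all libraries and the other controls were the lowest, a 4.87-fold range within the controls against 1.39-fold within PM2.5. Its log2 fold change was 0.25 ± 0.58 (edgeR adjusted p = 0.831). It was 1.31 without control 2 (adjusted p = 0.0706), -0.03 without control 1 and -0.11 without control 3, so its direction rested on single controls. Igfbp2 and Igfbp5 are also neighbours, on opposite strands of chromosome 9, with 5444 bases and no other gene of the table between their ends, and they differed in which library was highest.

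Igfbp4, the binding protein that the protease pappalysin-1 cleaves, had 85.2, 130 and 131 CPM in the controls (1 to 3) and 94.5, 99.5 and 97.7 CPM in PM2.5 libraries 1 to 3. The 3 PM2.5 libraries lay within 1.05-fold of each other and inside the range of the controls. Its log2 fold change was -0.25 ± 0.19 (edgeR adjusted p = 0.486), with a 95% interval from -0.70 to 0.20, which leaves out a fall larger than 1.62-fold.

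With Igfbp3 lower, the make-up of the binding protein transcripts differed between the groups while their sum did not separate them. The 5 tested binding proteins summed to 188, 362 and 207 FPKM in the controls (1 to 3) and 232, 281 and 302 FPKM in PM2.5 libraries 1 to 3, which overlap. Igfbp3 made up 19.8, 22.4 and 51.4% of that sum in the controls, against 3.57, 5.21 and 2.95% after PM2.5. Control 3 had the largest Igfbp3 share of all libraries. Igfbp6 made up 22.0, 21.8 and 9.56% in the controls and 37.5, 35.4 and 22.4% in PM2.5, apart by a small margin between control 1 and PM2.5 library 3. The shares of Igfbp2, Igfbp4 and Igfbp5 overlapped between the groups. Shares of 1 sum are tied to each other, and no test was made on them.

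**Figure D3:**
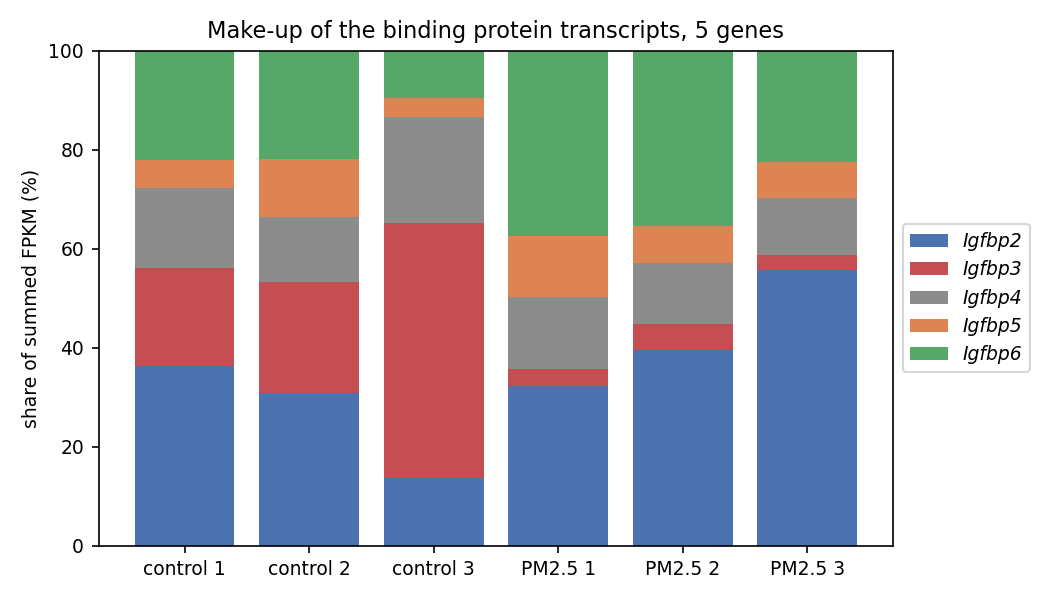
Share of the summed FPKM of 5 binding protein genes in each library, stacked to 100%. The Igfbp3 segment covers 19.8 to 51.4% in the controls and 2.95 to 5.21% in the PM2.5 libraries.

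Both ligand genes had higher means in PM2.5 and neither passed over all genes. Igf1, the ligand that amplifies gonadotropin action in the follicle, had 30.0, 44.2 and 17.6 CPM in the controls (1 to 3) and 50.5, 49.6 and 65.1 CPM in PM2.5 libraries 1 to 3. Every PM2.5 library was above every control, by 1.12-fold between the nearest ones. The mean was 30.6 ± 13.3 CPM in the controls and 55.1 ± 8.68 CPM in PM2.5 (SD, n = 3 in each group). The log2 fold change was 0.85 ± 0.33 (edgeR adjusted p = 0.211), and ran from 0.58 without control 3 to 1.21 without control 2. Igf1 and Igfbp3 were the 2 members of 9 whose groups did not overlap, where 27.2% of all tested genes did not overlap in either direction, so that count is near the background.

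Igf2, the ligand best known from fetal growth, had 21.8, 18.6 and 7.82 CPM in the controls (1 to 3) and 12.9, 33.8 and 41.1 CPM in PM2.5 libraries 1 to 3. PM2.5 library 1 lay below controls 1 and 2, while PM2.5 libraries 2 and 3 lay above all controls. The log2 fold change was 0.86 ± 0.52 (edgeR adjusted p = 0.380), with a 95% interval from -0.37 to 2.09. With 1 library left out it ran from 0.54 (control 3, and also PM2.5 library 3) to 1.22 (PM2.5 library 1). Per length, Igf1 was the larger ligand transcript in every library, at 58.4 to 70.8% of the summed FPKM of both in the controls and 60.0 to 80.0% in PM2.5.

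Binding protein transcripts outnumbered ligand transcripts in every library. The summed FPKM of the 5 binding proteins was 18.3, 27.9 and 42.6 times that of the ligands in the controls, against 18.3, 16.9 and 14.3 times after PM2.5. The mean ratio was 29.6 ± 12.3 in the controls and 16.5 ± 2.06 in PM2.5 (SD, n = 3), and the groups overlapped through control 1. With Igfbp3 left out of the sum the ratio was 14.7, 21.6 and 20.7 in the controls, against 17.7, 16.1 and 13.9 after PM2.5. That narrower ratio also overlapped between the groups.

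Neither receptor passed the test. Igf1r, the receptor that carries the signal into the cell, had 28.6, 23.2 and 49.4 CPM in the controls (1 to 3) and 30.3, 14.9 and 12.7 CPM in PM2.5 libraries 1 to 3. Control 3 was the highest, and PM2.5 library 1 lay above controls 1 and 2. For Igf1r the log2 fold change was -0.80 ± 0.42 (edgeR adjusted p = 0.318), with a 95% interval from -1.80 to 0.19. It became -0.42 when control 3 was left out and -1.28 when PM2.5 library 1 was.

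Igf2r, the receptor for lysosomal clearance of IGF2 and of enzymes tagged with mannose 6-phosphate, had 75.5, 92.6 and 96.1 CPM in the controls (1 to 3) and 132, 91.9 and 76.3 CPM in PM2.5 libraries 1 to 3. All but PM2.5 library 1 lay within a narrow band, and without that library the log2 fold change of 0.18 ± 0.23 became -0.06. Its edgeR adjusted p was 0.676, with a 95% interval from -0.35 to 0.72. Taken as a ratio per length, Igf2r was 1.34, 2.02 and 0.987 times Igf1r in the controls, against 2.21, 3.12 and 3.04 times after PM2.5, apart by a small margin between control 2 and PM2.5 library 1. This ratio was chosen after its values were seen and was not tested.

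Within each group the highest and lowest values of several members fell on the same libraries. In CPM, control 3 was the lowest control for 5 of the 9 tested members (Igf1, Igf2, Igfbp2, Igfbp5 and Igfbp6). It was the highest control for the other 4 (Igf1r, Igf2r, Igfbp3 and Igfbp4). For Igf2r and Igfbp4 control 2 was close, at 92.6 and 130 CPM against 96.1 and 131 CPM. By FPKM control 2 was above control 3 for both of these genes (9.31 and 47.8, against 8.94 and 44.4). The granulosa marker sum was lowest and the luteal marker sum highest in control 3. Within PM2.5, library 3 had the highest Igf1, Igf2 and Igfbp2 and the lowest Igf1r, together with the highest granulosa sum (3412) and the lowest luteal sum (4146). Library 1 of that group had the lowest Igf2 and Igfbp2 and the highest Igf1r, with a granulosa sum of 1122 and a luteal sum of 7387. Most of the granulosa sum was Inha, at 718 FPKM in library 1 and 2564 in library 3. Fshr, Amh, Inhbb and Cyp19a1 were also lowest in library 1 of PM2.5. Foxl2 and Nr5a2 of the same list were highest there, at 37.9 and 47.9 FPKM against 34.4 and 44.2 in library 3. Neither of these genes was lowest in control 3 among the controls. The smooth muscle sum (477 and 861 in PM2.5 libraries 1 and 2, against 165 in library 3) and the adipocyte sum (26.9 and 32.5, against 8.82) also set PM2.5 libraries 1 and 2 apart from library 3. The part of these cell types in the members' values was not tested.

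**Figure D4:**
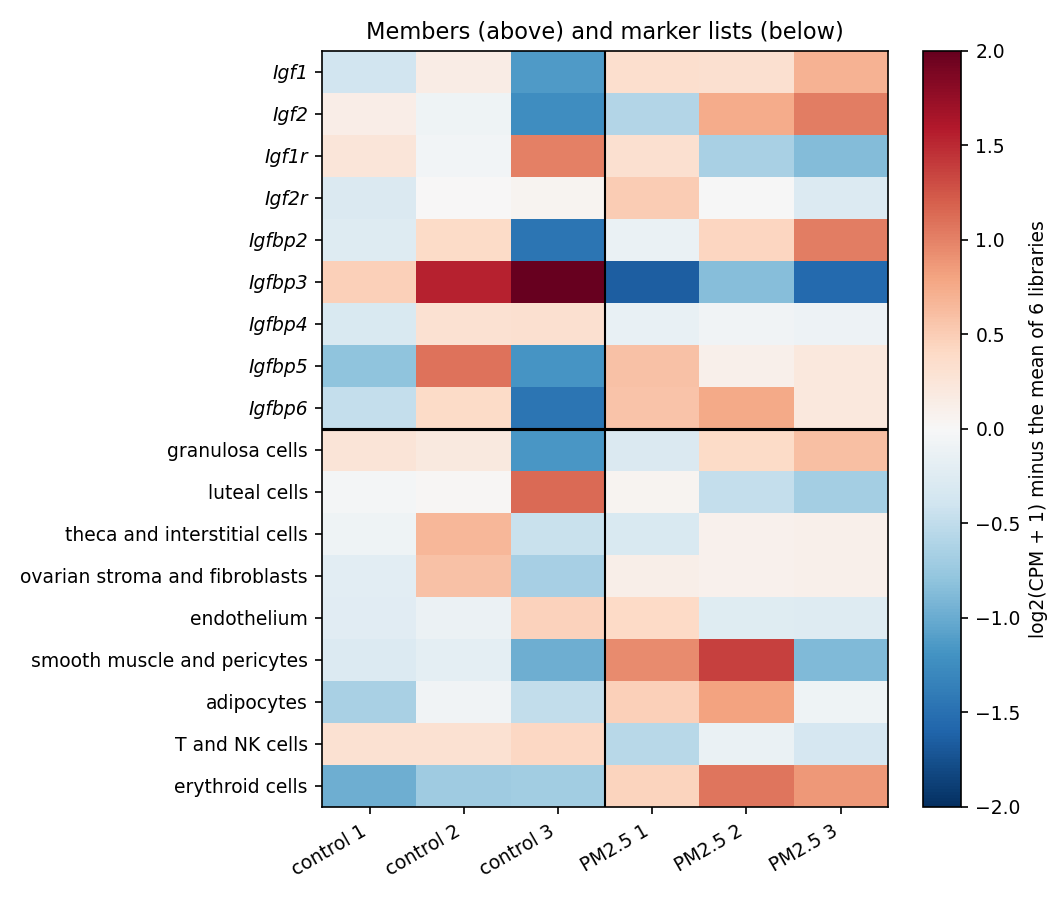
Log2(CPM + 1) minus the mean of the 6 libraries for the 9 tested members, above the black line, and the mean of the same quantity over the genes of 9 marker lists, below it. Control 3 is low for Igf2, Igfbp2 and the granulosa list (-1.16) and high for Igf1r and the luteal list (1.13).

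Likeness between patterns was described by Pearson's r of log2(CPM + 1) over the 6 libraries. No test was made, since these libraries form 2 groups and include control 3, which stood apart from the other controls. Within the family the most alike pair was Igf1 and Igfbp2 (r = 0.94). Among the 13702 other named genes averaging 1 FPKM or more, those most like Igfbp2 were Tceal9 (r = 0.998), Cebpz (0.998) and Myh10 (0.996). Those most like Igfbp6 were Fhl1 (0.994), Pold3 (0.994) and Col14a1 (0.991), of which Col14a1 encodes a fibril-associated collagen. For Igfbp3 they were Snord52 (0.997), Tma16 (0.996) and Gzmb (0.995). Snord52 was low in every library, at 1.38 to 2.38 CPM in the controls and 0.477 to 0.807 CPM in PM2.5. Tma16 had 7.93 to 10.1 CPM in the controls and 5.74 to 6.47 CPM in PM2.5. Gzmb, a granzyme of cytotoxic lymphocytes, had 12.0, 20.4 and 43.0 CPM in the controls (1 to 3). In PM2.5 libraries 1 to 3 it had 0.858, 2.42 and 0.967 CPM. An r over 6 points rests on few libraries, and these genes were not singular. Of the 13702 genes, 239, 53 and 144 had an r above 0.95 with Igfbp2, Igfbp6 and Igfbp3.

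Of the other genes of the pathway, none of 44 tested passed over all genes with edgeR, where 0.928% of all tested genes did. At an unadjusted p below 0.05 there were 6 higher and 2 lower, or 8 of 44, where 20.9% of all tested genes met that mark (9.17% higher and 11.7% lower). DESeq2 called 5 of the 44, where it called 11.5% of all tested genes. The groups did not overlap in 14 of the 44, against 27.2% of all tested genes. The median log2 fold change was 0.10 in these lists, 0.25 over the 9 tested members and 0.00 over all tested genes.

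In the list of accessory genes, which handle IGFs and their binding proteins outside the cell or their messenger RNA, 7 of 12 genes were tested, with 4 positive and 3 negative fold changes. Stc1, which encodes stanniocalcin-1, a secreted inhibitor of pappalysins, had 5.25, 8.64 and 4.20 CPM in the controls (1 to 3) and 41.9, 18.5 and 20.6 CPM in PM2.5 libraries 1 to 3. All PM2.5 libraries were above all controls, and the log2 fold change was 2.16 ± 0.43 with an edgeR adjusted p of 0.0724, which did not pass (DESeq2 adjusted p = 4.76e-05). Its paralogue Stc2 was at -0.02 ± 0.42, and at 0.01 to 0.24 without control 2, control 3 or PM2.5 library 3. Igfals, which encodes the acid-labile subunit of the circulating complex of IGF with IGFBP-3, was at 0.84 ± 0.44 and averaged 2.16 CPM in the controls and 3.87 CPM in PM2.5. Igfbp7, a relative of the binding proteins with low affinity for IGFs, had a mean of 599 FPKM in the controls and 560 in PM2.5, above every member, with a log2 fold change of -0.11 ± 0.22 that became 0.06 on leaving out control 3 and 0.02 on leaving out PM2.5 library 3. H19, the noncoding RNA of the imprinted locus shared with Igf2, was at -0.55 ± 0.50, and Igf2bp2, which encodes a protein that binds IGF2 messenger RNA, was at 0.47 ± 0.45.

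In the growth hormone list, whose receptor signal drives Igf1 transcription in liver, all 8 genes were tested, with 2 positive and 6 negative fold changes and a median of -0.38. Cish, a feedback inhibitor induced by STAT5, had 31.7, 75.6 and 170 CPM in the controls (1 to 3) and 26.8, 16.9 and 25.3 CPM in PM2.5 libraries 1 to 3. The groups did not overlap, though control 1 was close to PM2.5 library 1, and the log2 fold change of -2.01 ± 0.57 did not pass (edgeR adjusted p = 0.133, DESeq2 adjusted p = 0.00495). Without control 3, the highest library, it was -1.22. Socs3, another feedback inhibitor, was at -0.89 ± 0.39 and the kinase gene Jak2 at -0.84 ± 0.54. Feedback inhibitors of this list did not share a direction. Socs2 was at 0.53 ± 0.35, with means of 85.8 CPM in the controls and 124 CPM in PM2.5. The direction of Jak2 rested on control 2, which had 189 CPM, and without it the log2 fold change was 0.13. The growth hormone receptor gene Ghr was at 0.51 ± 0.24, with means of 16.2 CPM in the controls and 23.1 CPM in PM2.5.

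In the list of insulin and IGF receptor signalling 29 of 31 genes were tested, with 18 positive and 11 negative fold changes and a median of 0.13. Foxo1, a transcription factor that AKT holds out of the nucleus, had 46.2, 43.2 and 25.9 CPM in the controls (1 to 3) and 101, 59.2 and 109 CPM in PM2.5 libraries 1 to 3. Its groups did not overlap, and the log2 fold change was 1.22 ± 0.31 (edgeR adjusted p = 0.112, DESeq2 adjusted p = 0.00535). Rps6kb1, which encodes the S6 kinase downstream of mTOR, had 69.4, 72.5 and 73.8 CPM in controls and 55.4, 44.9 and 46.3 CPM in PM2.5, a log2 fold change of -0.56 ± 0.13 (edgeR adjusted p = 0.107, DESeq2 adjusted p = 0.0141). Grb14, an adaptor that inhibits the insulin receptor, was at 0.81 ± 0.27 and the kinase gene Akt2 at 0.78 ± 0.29. The insulin receptor gene Insr was at 0.40 ± 0.49.

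**Figure D5:**
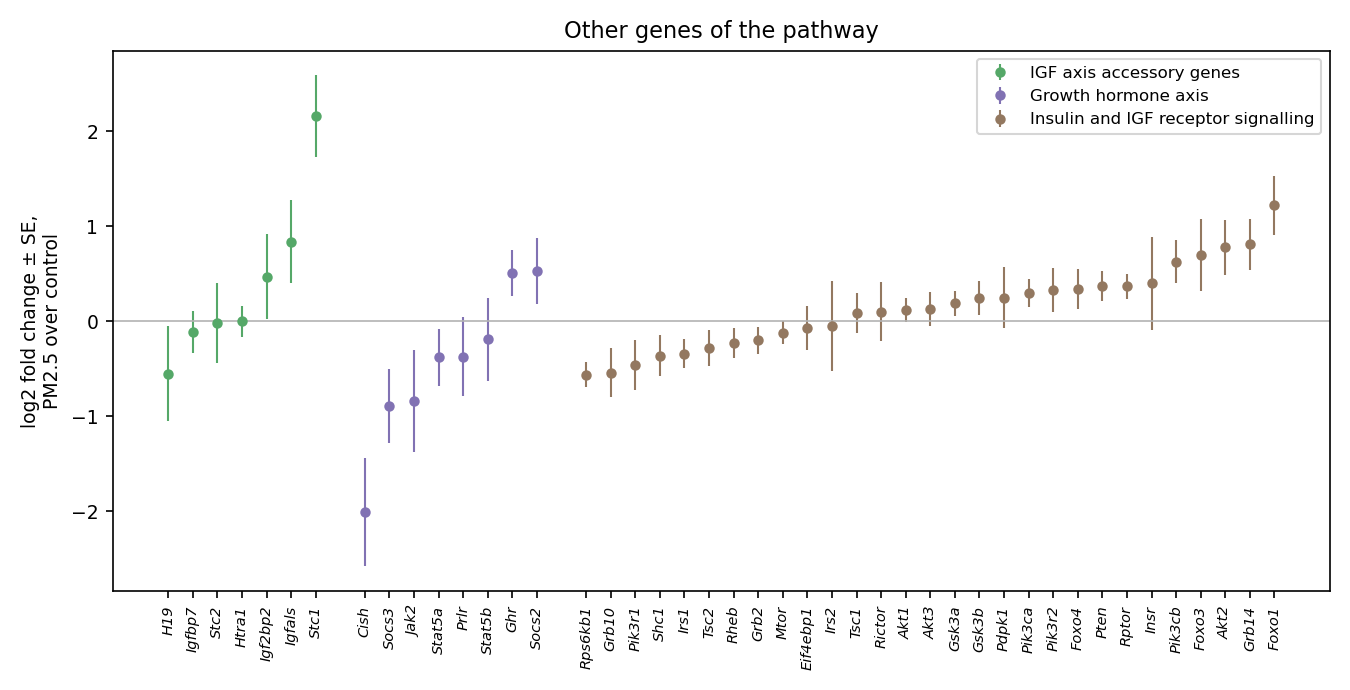
Log2 fold change with its SE for the tested genes of 3 pathway lists, PM2.5 over control, ordered within each list. Stc1 at 2.16 and Cish at -2.01 lie farthest from 0, and none of the 44 passed over all genes.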

How the data were processed

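The deposited table holds, per the file headers, whole-number counts and FPKM values. The counts are the authors' and the FPKM values are the authors' own normalisation. Per the submitters' processing notes, reads passed through tools that include StringTie 2.1.6, HISAT2 2.2.1 and cutadapt 1.9, whose roles are unstated. No source used here states build, annotation or strand setting, and overlapping genes may not be separated. Counts divided by FPKM implied 1 fixed length per member, from 1.08 kb for Igfbp6 to 10.3 kb for Igf2r.

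Genes averaging 0.5 FPKM or more were fitted in edgeR 4.0.16 (R 4.3.3) by glmQLFit and glmQLFTest after TMM scaling, comparing PM2.5 with control over all 6 libraries without a block, at a Benjamini-Hochberg adjusted p of 0.05, two-sided. SE is the log2 fold change over the square root of F, and CPM uses the TMM factors. Alternatives were other scalings and filters, DESeq2 1.42.0, limma 3.58.1 on log2(FPKM + 1) and log2(FPKM + 0.1), the block and leaving out each library. The code was tested on simulated data, where it recovered 6% of 2-fold and 62% of 4-fold changes. A gene that did not pass may therefore still differ between the groups. Libraries of a group differed by a chi-square per degree of freedom of 112 or more, so none repeats another. Members and lists were chosen with earlier results of these data known. Named were all members, up to 4 genes of each pathway list with the smallest p, Insr, Ghr, Pappa, Stc2, Igfbp7 and Igfals, and the 3 genes most like each of the 3 most abundant members. Socs2 was added after its values were seen and is left out of the counts over named genes. Irs4, Igf2bp1, Krt19, Ovgp1 and Foxj1 were not analysed here. Theca, stroma, macrophage, surface and oviduct marker sums overlapped between the groups. The oviduct sum, with 3 of 5 genes in the table, overlapped narrowly (4.33 to 13.9 FPKM in the controls and 13.3 to 37.2 in PM2.5). Of its genes Pax8 alone was apart, at 0.404 to 5.39 and 9.22 to 30.3 FPKM.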

Additional observations from a re-analysis of the deposited data

How the results depend on the processing

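Igfbp3 kept a negative fold change in all 14 alternatives, from -3.15 to -2.44, which groups that do not overlap made nearly certain, and passed in 6 of them, with adjusted p from 6.32e-09 to 0.230. No other member passed in any alternative. The number of members that passed was 1, and was 0 with no filter, 0 with the replicate block and 0 to 0 with each library left out. The number of genes that passed was 142, and was 8 with no filter, 1767 with DESeq2 (41.4% of them higher, against 20.4%), 1 with the replicate block and 0 to 7 with a library left out. Pathway genes that passed numbered 0, and 5 with DESeq2. Members whose groups did not overlap numbered 2, and 2 to 5 where 1 library was dropped. The ratio of binding proteins to ligands had means of 29.6 in controls and 16.5 in PM2.5, and 14.3 and 6.66 with CPM in place of FPKM, which is not per length. The cause of these changes was not tested, except that fewer libraries enter a fit that leaves one out. Same-numbered libraries had correlated deviations of -0.177, 0.162 and 0.0932, so the numbers were not taken as pairs. With the replicate block Igfbp3 was at -2.74 (edgeR adjusted p = 0.112). Over the named genes, 17 values in 2 genes (Igfbp3 and Gzmb) lost a call, 8 values in 6 genes gained one, and none turned a called direction.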

Other observations

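Some pathway genes under the filter varied most within a group. Pappa, which encodes the pappalysin that cleaves IGFBP-4, had 9, 491 and 227 counts in controls 1 to 3 and 66, 182 and 145 counts in PM2.5 libraries 1 to 3. Control 1 was the lowest and control 2 the highest of all libraries, and the groups overlapped. Insrr, an orphan relative of the insulin and IGF1 receptors, had 12, 373 and 90 counts in controls 1 to 3 and 9, 59 and 95 counts in PM2.5 libraries 1 to 3, again highest in control 2. Control 2 also had the highest Igfbp5 of all libraries, at 262 CPM. For Pappa2, counts were 21 in PM2.5 library 2 and 0 elsewhere. Insrr and Pappa2 were chosen after their values were seen.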
